A study of Mus musculus with 27 samples.

Results

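The small leucine-rich proteoglycans *Dcn*, *Bgn*, *Aspn*, *Lum*, *Fmod*, *Prelp*, *Omd*, *Ogn* and *Podn*, with the large proteoglycan *Vcan*, were followed across infarct and remote tissue of mouse hearts with and without chronic kidney disease (CKD). They were taken by gene symbol, and all 10 were found among the 27304 genes of the deposited count table. Bulk RNA was sequenced from 14 male ApoE-/- mice of the C57BL/6J strain, 7 days after myocardial infarction (MI). All 14 mice therefore shared the ApoE deletion, the infarction and an initial 4 weeks of western diet. Mice of the CKD group were then given adenine in that diet, at 0.3% during 10 days and at 0.15% during the next 11 days, of which 4 lay before MI and 7 after it. Control mice stayed on the western diet without adenine. The 27 libraries formed 4 groups, infarct CKD (n = 7), infarct control (n = 6), remote CKD (n = 8) and remote control (n = 6), and 13 hearts gave both regions. The comparisons ask how CKD altered expression in each region after MI, and how the infarct differed from remote myocardium.

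Small leucine-rich proteoglycans are secreted proteins built around leucine-rich repeats, most of which carry chondroitin, dermatan or keratan sulfate chains. They bind collagen fibrils and set fibril diameter and spacing, and several also bind growth factors of the TGF-beta family or receptors on cells. In the heart they are made mainly by fibroblasts and become part of the scar, where versican, which binds hyaluronan, belongs to the loose provisional matrix that comes before dense collagen.

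Libraries held 14255456 to 42566498 counts. The 10 genes together took 0.0707% to 0.463% of the counts in infarct CKD libraries, 0.447% to 0.825% in infarct control, 0.0694% to 0.117% in remote CKD and 0.0721% to 0.316% in remote control. A cardiomyocyte score, the mean of 12 marker genes in log2 CPM, counts scaled to a common library total, averaged 11.46 ± 0.66 in infarct CKD, 9.73 ± 1.27 in infarct control, 12.32 ± 0.14 in remote CKD and 12.03 ± 0.38 in remote control libraries (SD). An activated fibroblast score of 12 genes averaged 6.63 ± 1.70 in infarct CKD, 8.22 ± 0.43 in infarct control, 3.76 ± 0.46 in remote CKD and 4.83 ± 1.70 in remote control libraries. In both regions the cardiomyocyte mean was thus higher and the fibroblast mean lower in CKD than in control mice. Among infarcts, that of CKD mouse 9179 had levels of remote tissue, with a cardiomyocyte score of 12.48 and an activated fibroblast score of 3.20. That of CKD mouse 9172 had a cardiomyocyte score of 12.09, within the remote CKD range of 12.07 to 12.47. Its activated fibroblast score of 5.59 lay above the remote CKD range of 2.80 to 4.43 and below the infarct CKD mean. Remote tissue of control mouse 9180 went the other way, with scores of 11.31 and 7.85. The values that moved most without these 3 libraries are also given without them. For the remote tissue of mouse 9179 the title says CKD and the treatment label control, and it was counted as CKD. In bulk tissue, fewer cells of a type and less RNA per cell cannot be told apart.

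Levels of different genes were compared as CPM per kilobase of the longest coding transcript. By group mean, *Bgn*, *Dcn* and *Lum* were the 3 most abundant of the 10 in each group, and *Omd* was the least. *Bgn* led in the infarct, with 614 ± 324 CPM per kilobase in CKD and 1162 ± 362 in control mice, against 436 ± 120 in CKD and 519 ± 92.5 in control mice for *Dcn* (SD). In remote tissue *Dcn* came first instead, with 263 ± 21.98 CPM per kilobase in CKD and 307 ± 61.0 in control mice, against 144 ± 56.7 in CKD and 259 ± 219 in control mice for *Bgn*. The libraries of *Bgn* and *Dcn* overlapped in 3 of these groups, and in the infarct control group the lowest *Bgn* library, at 699.5 CPM per kilobase, lay above the highest *Dcn* library, at 657. *Lum* came next after both, from 22.2 ± 4.56 CPM per kilobase in remote CKD to 186 ± 34.6 in infarct control libraries.

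*Ogn*, *Aspn*, *Prelp* and *Fmod* lay close together in the infarct, between 16.97 and 23.8 CPM per kilobase in CKD and between 30.5 and 48.3 in control mice, and their libraries overlapped within each diet. In remote CKD libraries they separated more, with 14.1 CPM per kilobase for *Ogn*, 13.5 for *Prelp*, 4.38 for *Aspn* and 0.995 for *Fmod*. *Podn* stayed between 6.84 and 7.57 CPM per kilobase in the means of all 4 groups. *Vcan*, whose longest transcript is 12.4 kb, had a mean of 1.08 to 5.10 CPM per kilobase, and *Omd* had 0.234 to 0.403.

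**Figure D1:**
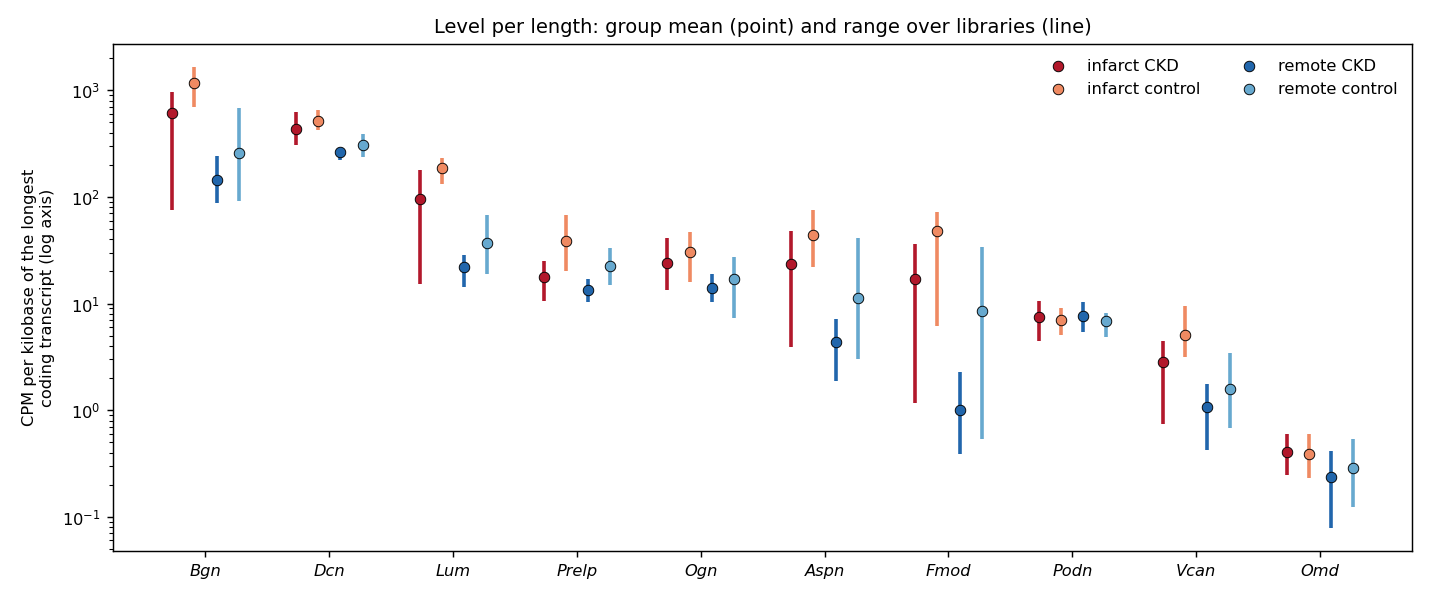
Mean level per length (points, log axis, CPM per kilobase of the longest coding transcript) and range over libraries (lines) of the 10 genes in infarct CKD, infarct control, remote CKD and remote control tissue. The means of *Bgn*, *Dcn* and *Lum* lie above those of the other 7 genes in every group. The library range of *Lum* overlaps that of *Ogn* in infarct CKD, remote CKD and remote control tissue. *Podn* keeps nearly the same mean, and the mean of *Fmod* spans from 0.995 in remote CKD to 48.3 in infarct control libraries.

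The class I genes were examined first. Decorin, which binds collagen fibrils through its leucine-rich repeats and carries a single chondroitin or dermatan sulfate chain, had *Dcn* levels of 541 to 1095 CPM with a median of 697 in infarct CKD libraries, against 750.4 to 1156 with a median of 844 in infarct control. Remote levels of *Dcn* were 392 to 507 CPM with a median of 468 in CKD and 418 to 679 with a median of 529 in control mice. Every infarct library lay above every remote library of the same diet, while the diets overlapped in both regions.

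Biglycan, a close relative of decorin that can also signal through Toll-like receptors, had *Bgn* levels of 181 to 2319 CPM with a median of 1559.5 in infarct CKD libraries, against 1692 to 3999.9 with a median of 2713 in infarct control. Remote levels of *Bgn* were 211 to 587 CPM with a median of 283 in CKD and 222 to 1647 with a median of 479 in control mice. The infarct of mouse 9179, at 181 CPM, was below every remote library, and the remote library of mouse 9180, at 1647 CPM, reached into the range of infarcts. Infarct and remote libraries of control mice did not overlap, those of CKD mice did, and the diets overlapped in both regions.

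Asporin, which has a run of aspartates in place of the usual attached chain and binds TGF-beta, had *Aspn* levels of 9.04 to 112 CPM with a median of 47.1 in infarct CKD libraries, against 51.4 to 175 with a median of 96.0 in infarct control. Remote levels of *Aspn* were 4.41 to 16.6 CPM with a median of 9.51 in CKD and 7.07 to 95.6 with a median of 10.8 in control mice. The lowest infarct was again that of mouse 9179 and the highest remote library that of mouse 9180. The diets overlapped in each region, and the regions overlapped in each diet.

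Among the class II genes, lumican, a keratan sulfate proteoglycan that spaces collagen fibrils in the cornea, had *Lum* levels of 37.4 to 443 CPM with a median of 196 in infarct CKD libraries, against 323 to 562 with a median of 461 in infarct control. Remote levels of *Lum* were 34.9 to 69.8 CPM with a median of 56.0 in CKD and 46.6 to 165 with a median of 82.0 in control mice. In control mice every infarct exceeded every remote library. In CKD mice the infarct of mouse 9179 alone fell into the range of their remote libraries.

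Fibromodulin, which shares a collagen site with lumican and guides fibril maturation and cross-linking, had *Fmod* levels of 3.63 to 114 CPM with a median of 51.7 in infarct CKD libraries, against 19.1 to 224 with a median of 179.8 in infarct control. Remote levels of *Fmod* were 1.22 to 7.10 CPM with a median of 2.71 in CKD and 1.69 to 106 with a median of 11.1 in control mice. This gene spread most between libraries, with the infarcts of mice 9179 and 9172 at 3.63 and 5.57 CPM and the remote library of mouse 9180 at 106 CPM. The diets overlapped in each region, and so did the regions in each diet.

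PRELP, whose basic end binds heparan sulfate and which links basement membranes to collagen, had *Prelp* levels of 38.5 to 90.3 CPM with a median of 70.7 in infarct CKD libraries, against 72.4 to 245 with a median of 133 in infarct control. Remote levels of *Prelp* were 37.6 to 61.7 CPM with a median of 49.2 in CKD and 54.0 to 119.6 with a median of 69.2 in control mice. In the infarct the diets overlapped only between 72.4 and 90.3 CPM, where the CKD mice 9174 and 9178 lay with the control mouse 9170.

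Osteomodulin, named for its place in bone matrix, was near the limit of counting, with 4 to 43 counts of *Omd* in a library. *Omd* reached 0.553 to 1.33 CPM with a median of 0.991 in infarct CKD libraries, 0.518 to 1.35 with a median of 0.858 in infarct control, 0.177 to 0.937 with a median of 0.528 in remote CKD and 0.277 to 1.22 with a median of 0.620 in remote control. All groups overlapped.

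Osteoglycin, the class III member, also called mimecan, had *Ogn* levels of 34.1 to 107 CPM with a median of 55.7 in infarct CKD libraries, against 40.6 to 119.7 with a median of 78.6 in infarct control. Remote levels of *Ogn* were 26.3 to 48.5 CPM with a median of 36.3 in CKD and 18.6 to 69.4 with a median of 44.2 in control mice. All groups overlapped.

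Podocan, a class V member described in the arterial wall, had nearly the same *Podn* level everywhere. *Podn* medians were 21.97 CPM in infarct CKD (14.03 to 33.4), 21.96 in infarct control (16.2 to 28.7), 23.5 in remote CKD (17.2 to 32.7) and 22.1 in remote control libraries (15.4 to 26.04). All groups overlapped.

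Versican, which forms large hyaluronan aggregates and is cleaved by ADAMTS proteases, had *Vcan* levels of 9.13 to 55.1 CPM with a median of 39.7 in infarct CKD libraries, against 39.1 to 118 with a median of 56.6 in infarct control. Remote levels of *Vcan* were 5.25 to 22.1 CPM with a median of 13.4 in CKD and 8.50 to 43.03 with a median of 17.4 in control mice. The infarct control library of mouse 9184, at 118 CPM, stood apart, since the next infarct control library had 59.0 CPM. Overlap was present between diets in each region and between regions in each diet.

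**Figure D2:**
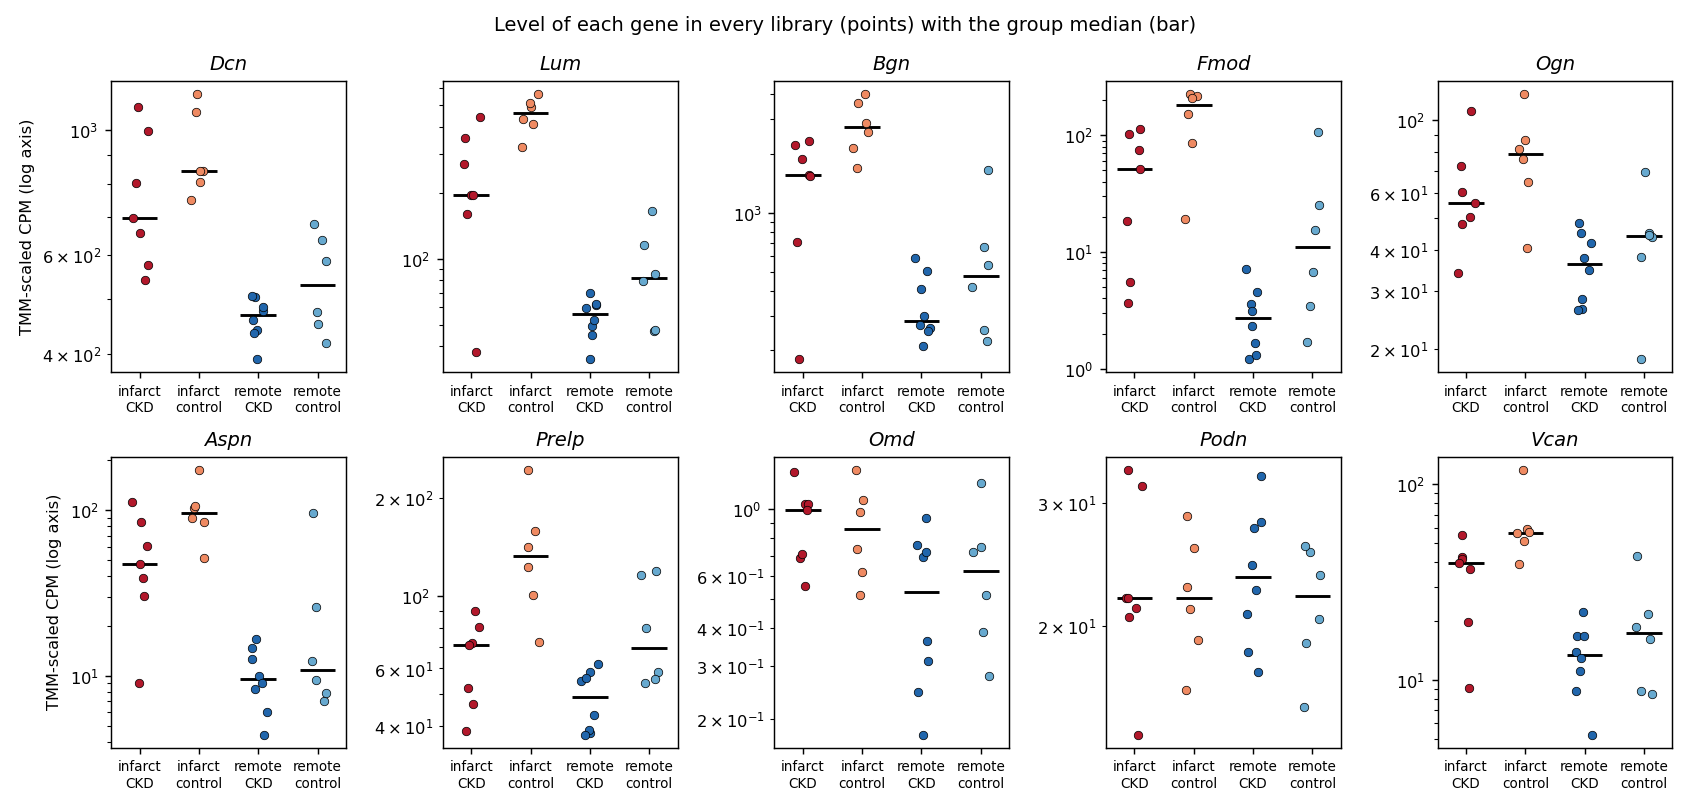
Level of each of the 10 genes in every library (points, TMM-scaled CPM, log axes that differ between panels) with the group median (bar), for infarct CKD, infarct control, remote CKD and remote control. *Dcn* separates infarct from remote tissue without overlap in both diets, *Podn* has medians of 21.96 to 23.5 CPM in all groups, and the infarct CKD point of mouse 9179 lies within or below the remote range for *Lum*, *Bgn*, *Fmod*, *Aspn* and *Vcan*.

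In the infarct, CKD was accompanied by lower *Prelp*, and no other gene of the set passed the test. *Prelp* averaged 64.4 ± 18.96 CPM in infarct CKD and 140.4 ± 59.5 CPM in infarct control libraries (SD, n = 7 and n = 6). Its log2 fold change was -1.16 ± 0.27 (SE), with an adjusted p of 0.0345 (edgeR quasi-likelihood test with Benjamini-Hochberg adjustment over 14358 genes). That was 1 of the 10 genes, when 20.3% of all genes tested were called in either direction and 7.14% were called lower. The set had 8 of its 10 fold changes below 0 and a median log2 fold change of -0.90, against -0.02 over all genes tested. That median of the set was -0.61 without the infarct libraries of mice 9172 and 9179, and -0.24 with the cardiomyocyte score as a covariate. DESeq2 called *Lum*, *Prelp* and *Vcan* lower, and limma-voom with sample weights called none of the 10. Of all 14358 genes, DESeq2 called 31.7%, with 1760 genes lower, and limma-voom 16.5%, with 1053 lower.

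The genes that did not pass varied in size of estimate. *Fmod* had a log2 fold change of -1.54 ± 0.74 (adjusted p = 0.137, edgeR), the most negative of the set and the one with the widest error. *Lum* at -0.98 ± 0.39, *Bgn* at -0.95 ± 0.45, *Aspn* at -0.92 ± 0.44 and *Vcan* at -0.89 ± 0.35 lay close together, with adjusted p-values between 0.0805 and 0.133. *Ogn* at -0.39 ± 0.26 and *Dcn* at -0.29 ± 0.20 were smaller, and *Podn* at 0.04 ± 0.19 and *Omd* at 0.00 ± 0.28 were at 0 within their error.

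The *Prelp* call depended on which libraries and which fit were used. It was kept in 8 of 13 fits that left out 1 library each and lost without CKD mouse 9172 (adjusted p = 0.0742), 9177 (0.0527), or control mouse 9171 (0.0729), 9182 (0.0550) or 9183 (0.0837). In those 5 fits 0 genes of the whole table passed, while the log2 fold change of *Prelp* stayed between -0.93 and -1.24. Over all alternatives its adjusted p ran from 0.00220, with DESeq2 or in the fit of all 27 libraries, to 0.978. Without the infarct libraries of mice 9172 and 9179 its log2 fold change was -1.002 (adjusted p = 0.0880), and in that fit too no gene of the whole table passed, although 4064 had an unadjusted p under 0.05. The cardiomyocyte markers, none of them at 0 in any library, went the other way: 6 of 12 were higher in infarct CKD than in infarct control tissue and none lower, with scores of 10.57 to 12.48 against 7.49 to 10.61. With that score as a covariate the log2 fold change of *Prelp* was -0.48 (adjusted p = 0.978) and no gene of the whole table passed, 537 having an unadjusted p under 0.05. The scores barely overlapped between the diets, so that fit cannot tell diet and cardiomyocyte score apart. The loss of calls in it therefore does not decide between them. Of the activated fibroblast markers, 3 of 12 were lower in infarct CKD tissue (*Acta2*, *Fap* and *Comp*) and none higher, with scores of 3.20 to 7.74 against 7.54 to 8.60. Of the atrial markers 1 of 3 tested was higher in infarct CKD tissue (*Myl7*) and none lower, with scores of 2.28 to 6.19, the highest in mouse 9179, against 2.24 to 2.94, and *Sln* was at 0 in libraries of every group. The part of the fibroblast and atrial markers in the result was not tested.

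In remote myocardium none of the 10 genes passed the test between CKD and control mice, where 3 of 13902 genes, or 0.0216%, were called at all. DESeq2 called *Fmod* (log2 fold change -3.14, adjusted p = 0.0187), whose adjusted p ran from there to 0.741 over the alternatives. Limma-voom called none. Of all genes tested, DESeq2 called 0.698% and limma-voom 0.036%. In edgeR 5 of the 10 had an unadjusted p under 0.05, as did 1626 of the 13902 genes. Without the remote library of control mouse 9180 these counts were 3 of the 10 and 1128 of 13920 genes. The estimates lay below 0 for 9 of 10 genes, with a median of -0.67 against -0.0049 over all genes tested. *Fmod* had -3.15 ± 0.75 (adjusted p = 0.236), *Aspn* -1.45 ± 0.55 (0.344), *Bgn* -0.89 ± 0.40 (0.406), *Lum* -0.76 ± 0.26 (0.313) and *Prelp* -0.75 ± 0.20 (0.272). The other five ranged from -0.59 for *Vcan* to 0.13 for *Podn*.

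A single library carried much of these remote estimates. Without the remote library of control mouse 9180 the median over the 10 genes was -0.24, and the log2 fold change was -1.76 for *Fmod*, -0.31 for *Aspn*, -0.28 for *Bgn*, -0.47 for *Lum* and -0.15 for *Vcan*. *Prelp* hardly moved, at -0.74 (adjusted p = 0.409). In remote tissue *Prelp* passed in none of the fits run, with adjusted p-values of 0.0534 to 0.642. The median over the 10 genes was also nearer 0 with limma-voom (-0.24) and with the cardiomyocyte score as a covariate (-0.011). Of the activated fibroblast markers 12 of 12 had estimates below 0 in remote tissue, with a median of -2.61 and none called, and their scores were 2.80 to 4.43 in remote CKD and 3.15 to 7.85 in remote control libraries, the highest in mouse 9180. Mesothelial markers lay below 0 for 6 of 6 with none called, with scores of 1.43 to 3.04 in remote CKD and 2.63 to 3.91 in remote control libraries. The part of both marker lists in the remote values was not tested.

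The effect of CKD was also compared between regions. The difference of the log2 fold changes, infarct minus remote, passed for none of the 10 genes and for none of 14770 genes in all (0%), with 2787 genes at an unadjusted p under 0.05, none of them among the 10. DESeq2 called 10 genes of the table and limma-voom 6, again none of the 10. The largest estimate was that of *Fmod* at 1.58 ± 1.09 (adjusted p = 0.451), which was 0.25 without the remote library of mouse 9180. *Prelp* had -0.40 ± 0.35 and *Dcn* -0.03 ± 0.22.

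**Figure D3:**
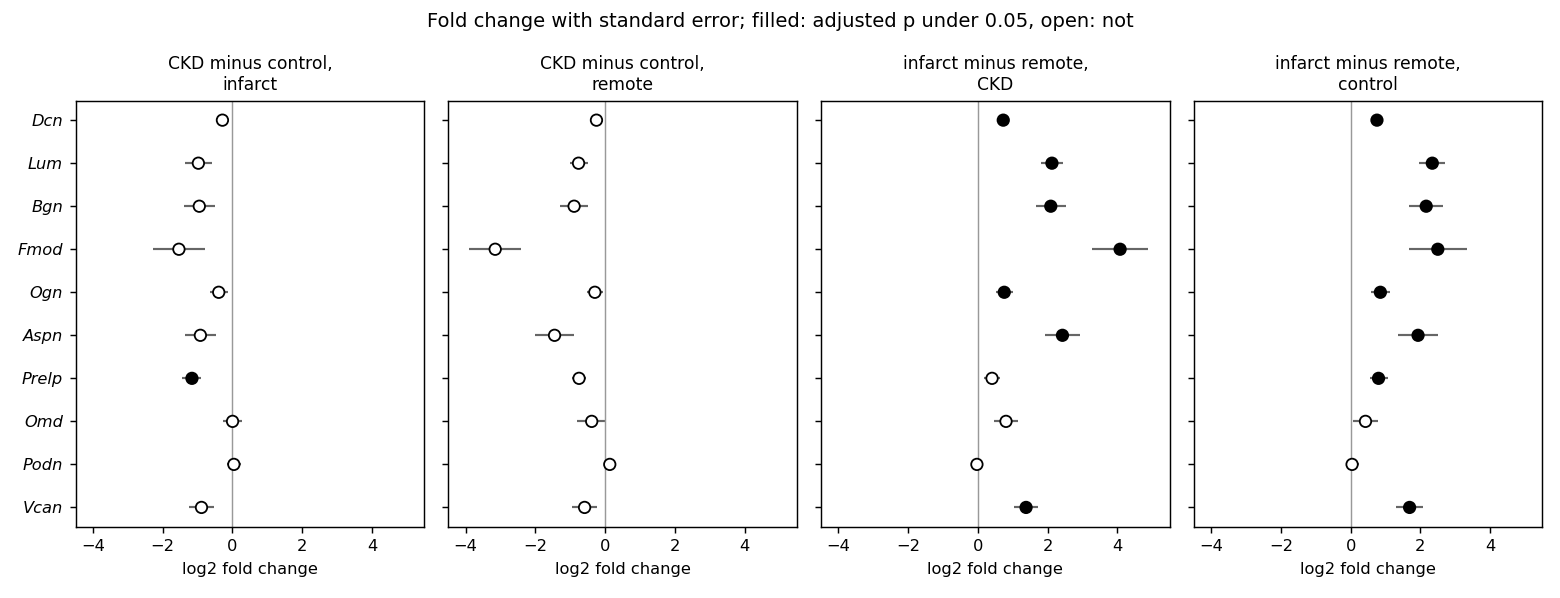
Log2 fold change (points) with its standard error (lines) of the 10 genes for CKD minus control in the infarct, CKD minus control in remote tissue, infarct minus remote in CKD and infarct minus remote in control mice. Filled points passed an adjusted p of 0.05 in edgeR, which were *Prelp* in the first panel, none in the second, 7 genes in the third and 8 in the fourth.

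Between regions most of the set was higher in the infarct. In CKD mice 7 of 10 genes were higher in infarct than in remote tissue and none lower, where 45% of 14770 genes were called, 24.7% higher and 20.2% lower. In control mice 8 of 10 were higher and none lower, where 63.9% of all genes were called, 30.7% higher and 33.2% lower. The median log2 fold change of the 10 genes was 1.09 in CKD and 1.27 in control mice, against -0.01 over all genes tested in either diet. *Podn* and *Omd* passed in neither diet, and *Prelp* passed in control mice alone. Limma-voom with sample weights called 9 of the 10 higher in CKD mice, *Prelp* and *Omd* among them. That fit called 60.2% of all genes, 4308 of 14770 higher.

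Among the class I genes, *Bgn* was higher in the infarct by a log2 fold change of 2.09 ± 0.42 in CKD (adjusted p = 5.32e-04) and 2.17 ± 0.48 in control mice (3.98e-04). *Aspn* rose by 2.42 ± 0.51 in CKD (7.81e-04) and 1.93 ± 0.56 in control mice (0.00428), and the control value was 3.01 (1.17e-05) without the remote library of mouse 9180. *Dcn* rose by the smaller 0.73 ± 0.15 in CKD (5.14e-04) and 0.76 ± 0.16 in control mice (3.35e-04). Within the set, *Dcn* alone had no overlap of infarct and remote libraries in both diets. Overlap was looked at for the set only, so how common such separation was among all genes was not tested.

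Among the class II genes, *Lum* rose by 2.12 ± 0.33 in CKD (adjusted p = 8.28e-05) and 2.34 ± 0.37 in control mice (1.98e-05), the smallest p of the set in both. *Fmod* rose by 4.08 ± 0.80 in CKD (4.20e-04) and 2.50 ± 0.83 in control mice (0.0107), and the control value was 3.83 without the remote library of mouse 9180. *Prelp* had 0.41 ± 0.23 in CKD mice, which did not pass (0.148), and rose by 0.80 ± 0.26 in control mice (0.00891). That CKD value was 0.62 (0.0323) without the infarct libraries of mice 9172 and 9179, within a range of 0.0323 to 0.307 over the alternatives. *Omd* had 0.81 ± 0.34 in CKD (0.0557) and 0.43 ± 0.37 in control mice (0.309), which was 0.75 (0.0823) without the remote library of mouse 9180. The CKD value passed in several alternatives, among them the fit with mouse as a block (0.97, adjusted p = 0.0174, range 0.00791 to 0.121).

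Of the remaining genes, *Vcan* rose by 1.38 ± 0.35 in CKD (adjusted p = 0.00349) and 1.69 ± 0.40 in control mice (6.78e-04). *Ogn* rose by 0.76 ± 0.24 in CKD (0.0141) and 0.85 ± 0.27 in control mice (0.00757), and its call in CKD mice was lost without the infarct of mouse 9178 (0.57, adjusted p = 0.0567, range 0.00122 to 0.0567). *Podn* had -0.03 ± 0.17 in CKD and 0.04 ± 0.19 in control mice. Marker lists moved beside these genes. Of activated fibroblast markers 11 of 12 were higher in the infarct in CKD and 10 of 12 in control mice, and of macrophage markers 7 of 8 in CKD and 7 of 8 in control mice. The macrophage marker *Cd163* was lower in control mice. Resting fibroblast markers went both ways. Of these 12, 6 were higher and 1 lower in CKD mice, and 6 were higher and 3 lower in control mice. Of cardiomyocyte markers 2 of 12 were lower in CKD and 11 of 12 in control mice. Their part in the region values was not tested.

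Within single hearts *Fmod*, *Aspn*, *Bgn* and *Lum* again differed most between regions. The ratio of infarct to remote CPM had a median of 10.4 for *Fmod* in 7 CKD hearts and 12.96 in 6 control hearts. For *Aspn* the median was 4.67 in CKD and 7.47 in control hearts, for *Bgn* 3.95 in CKD and 6.31 in control hearts, and for *Lum* 3.85 in CKD and 5.90 in control hearts. *Vcan* had 2.49 in CKD and 3.32 in control hearts, and *Dcn* 1.38 in CKD and 1.70 in control hearts. *Dcn*, *Fmod* and *Vcan* were higher in the infarct in 7 of 7 CKD and 6 of 6 control hearts. *Bgn*, *Lum* and *Aspn* were higher in 6 of 7 CKD and 6 of 6 control hearts, the exception being mouse 9179, with ratios of 0.861, 0.715 and 0.999. Medians in CKD and in control hearts were 1.33 (CKD) and 1.83 (control) for *Ogn*, 1.23 (CKD) and 1.63 (control) for *Prelp*, and 2.85 (CKD) and 1.39 (control) for *Omd*. *Podn* had medians of 0.976 in CKD and 1.12 in control hearts and was higher in the infarct in 3 of 7 CKD and 4 of 6 control hearts.

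**Figure D4:**
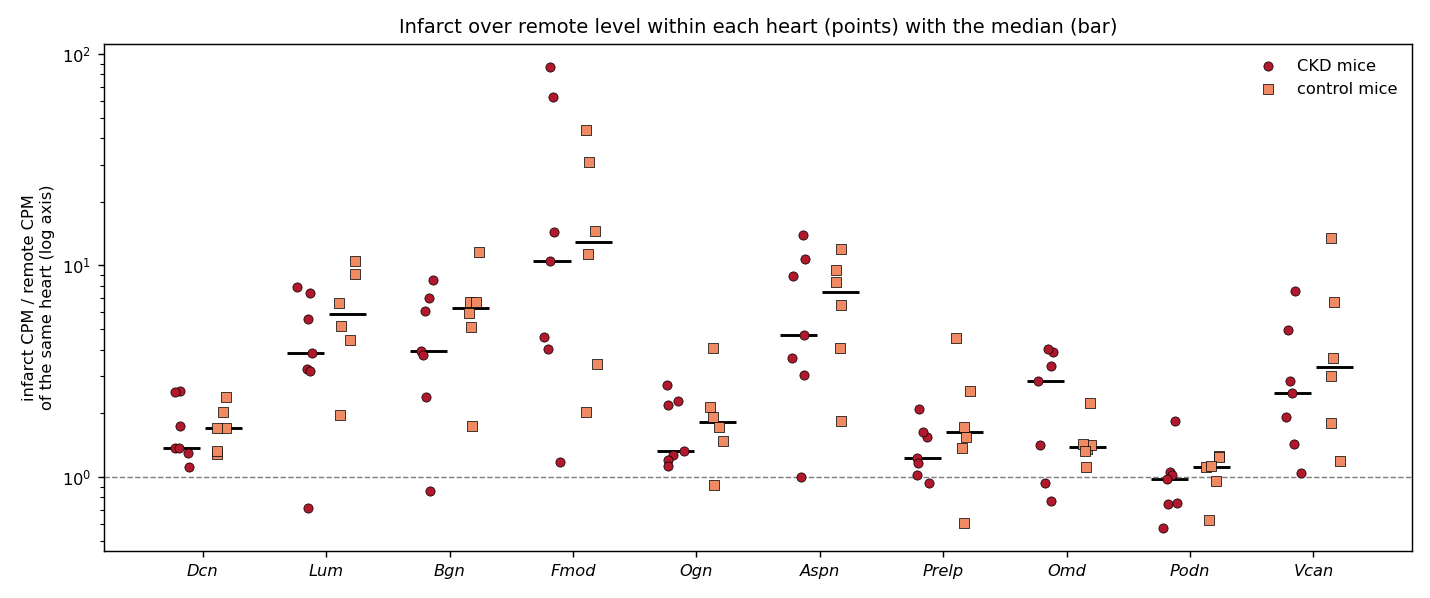
Ratio of infarct to remote CPM within each heart (log axis) for the 10 genes, with circles for 7 CKD and squares for 6 control mice and bars for the medians. *Fmod* has the highest medians, 10.4 in CKD and 12.96 in control hearts, and *Podn* lies around the dashed line of equal levels.

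Proportions between the genes do not depend on the scaling of libraries, and 4 ratios were tested by exact two-sided permutation, 16 tests in all, none of which passed after adjustment (lowest adjusted p = 0.1). The tests between regions could not pass by themselves, since the smallest exact p of 6 or 7 hearts is too large for 16 tests. That they did not pass is therefore no sign of equal ratios. The log2 ratio of *Bgn* to *Dcn* was higher in the infarct than in remote tissue by 1.22 in CKD mice (6 of 7 hearts, exact p = 0.03125) and by 1.69 in control mice (6 of 6 hearts, exact p = 0.03125, the smallest that 6 hearts allow). That of *Aspn* to *Dcn* was higher by 1.59 in CKD (6 of 7) and 1.82 in control mice (6 of 6), with the same exact p. *Fmod* to *Lum* differed by 1.56 in CKD mice (7 of 7 hearts, exact p = 0.015625, the smallest that 7 hearts allow) and by 0.96 in control mice (5 of 6, exact p = 0.15625). *Vcan* to *Dcn* differed by 0.66 in CKD (6 of 7, exact p = 0.0469) and 1.08 in control mice (5 of 6, exact p = 0.0625). Between diets the *Fmod* to *Lum* ratio of remote tissue differed by -1.44 on the log2 scale, CKD minus control (exact p = 0.0463, adjusted 0.107), and *Bgn* to *Dcn* in the infarct differed by -0.93 (exact p = 0.0903, adjusted 0.131).

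Some neighbouring genes of the family differed widely in level. In RefSeq (GRCm38.p6) *Ecm2*, *Aspn*, *Omd* and *Ogn* are consecutive coding genes of chromosome 13, and *Aspn* lay at 43.6 CPM per kilobase in infarct control tissue where *Omd* lay at 0.391 and *Ogn* at 30.5. The libraries of *Aspn* and *Ogn* overlapped there, and those of *Omd* lay below both. *Prelp* and *Fmod* adjoin on chromosome 1, and *Dcn* and *Lum* on chromosome 10. Start regions from RefSeq, 250 bases before to 50 after the start, were on hand for 8 of the 10 genes, and the 3 of the chromosome 13 neighbours and that of *Bgn*, the most abundant of the 10 in the infarct, are shown 5′ to 3′ on the strand of the gene. Capitals mark matches, on either strand, to the TATAAA element of core promoters, the TGANTCA element that AP-1 factors bind, the GGAATG element that TEAD factors bind, or the GGGCGG element that Sp1 binds.
Aspn, chr13:49544193-49544492, plus strand: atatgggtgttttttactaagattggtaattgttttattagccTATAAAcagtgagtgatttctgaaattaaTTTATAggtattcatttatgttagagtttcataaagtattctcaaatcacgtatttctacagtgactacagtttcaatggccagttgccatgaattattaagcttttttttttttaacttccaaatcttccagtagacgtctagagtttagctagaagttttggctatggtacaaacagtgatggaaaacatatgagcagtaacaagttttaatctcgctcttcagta
Omd, chr13:49582212-49582511, plus strand: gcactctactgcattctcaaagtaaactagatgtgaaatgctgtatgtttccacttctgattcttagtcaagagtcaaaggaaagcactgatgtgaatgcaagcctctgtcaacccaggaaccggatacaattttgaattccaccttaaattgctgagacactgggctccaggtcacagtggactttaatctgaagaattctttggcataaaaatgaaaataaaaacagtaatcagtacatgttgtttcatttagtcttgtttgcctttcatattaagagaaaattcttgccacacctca
Ogn, chr13:49607765-49608064, plus strand: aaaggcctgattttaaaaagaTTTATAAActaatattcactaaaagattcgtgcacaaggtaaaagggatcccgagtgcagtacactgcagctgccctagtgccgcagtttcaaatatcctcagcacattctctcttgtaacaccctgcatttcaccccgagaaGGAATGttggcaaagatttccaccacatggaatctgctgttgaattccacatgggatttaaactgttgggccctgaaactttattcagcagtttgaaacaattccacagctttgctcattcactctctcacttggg
Bgn, chrX:73483351-73483650, plus strand: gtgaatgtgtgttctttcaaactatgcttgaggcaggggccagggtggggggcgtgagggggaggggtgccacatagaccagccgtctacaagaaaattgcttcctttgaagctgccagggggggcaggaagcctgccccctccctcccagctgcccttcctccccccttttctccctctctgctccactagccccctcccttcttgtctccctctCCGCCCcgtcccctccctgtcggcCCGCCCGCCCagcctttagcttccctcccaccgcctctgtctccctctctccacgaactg

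*Aspn* held TATAAA once on each strand, beginning at positions -207 and -178 from the start. *Ogn* held TATAAA on both strands in one overlapping stretch at -229 and -227, and GGAATG at -86. *Bgn* held GGGCGG 3 times within the last 34 bases before the start, where the 2 nearest the start overlap, and no match was found in the window of *Omd*. Over 32851 RefSeq windows of the same length, TATAAA occurred in 13.6% of windows, TGANTCA occurred in 7.81%, GGAATG occurred in 14.7% and GGGCGG occurred in 35.7%. GGGCGG also occurred in the windows of *Vcan* and *Podn*, and those of *Fmod* and *Prelp* held none of these motifs.

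Enzymes that build the sulfated chains were counted beside the proteoglycan genes. In the infarct, 6 of 21 genes of chondroitin and dermatan sulfate synthesis were lower in CKD than in control mice and none higher, with a median log2 fold change of -0.70. Over all genes tested in the infarct, 7.14% were called lower and 13.1% higher, with a median of -0.02, and the counts of the lists that follow stand beside those shares. Of these, *Chsy1*, which polymerises chondroitin, averaged 32.4 ± 13.9 CPM in infarct CKD and 60.8 ± 13.6 CPM in infarct control libraries (log2 fold change -0.94, edgeR adjusted p = 0.0374). *Csgalnact2*, which starts chondroitin chains, changed by -0.41 and *Dsel*, an epimerase of dermatan sulfate, by -0.85 (adjusted p = 0.0345 for both). Of the genes listed for keratan sulfate synthesis, some of which serve other sulfated chains too, 2 of 10 were lower. These were *Papss1*, which makes the sulfate donor shared by all these chains, by -0.70 and the sulfotransferase *Chst1* by -0.64.

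Hyaluronan genes, whose product versican binds, were lower for 3 of 14, with a median of -0.69. The synthase *Has2* averaged 1.42 ± 0.95 CPM in infarct CKD and 4.48 ± 2.69 CPM in infarct control libraries (log2 fold change -1.66), *Has1* changed by -2.72 and *Stab2*, a receptor that clears hyaluronan, by -1.02 (adjusted p = 0.0345 to 0.0379). Among 19 receptors and processing partners 4 were lower, including *Bmp1*, the protease that trims the pro-forms of several of these proteins, by -0.97, *Tpst1*, which sulfates tyrosines such as those of fibromodulin, by -0.62 and *Egfr*, a receptor bound by decorin, by -0.89. Of 13 fibrillar and associated collagens 1 was lower (*Col2a1*, -3.96), of 6 versican-cleaving proteases 1 (*Adamts9*, -0.44), and of 7 other small leucine-rich proteoglycans 1 (*Chad*, -1.48). All 13 collagens had estimates below 0, with a median of -1.23. *Col2a1* was low, at 0 to 1.28 CPM in infarct CKD and 0.0863 to 23.9 CPM in infarct control libraries. *Chad* was low too, with means of 0.399 CPM in infarct CKD and 0.997 CPM in infarct control libraries. So was *Stab2*, with means of 0.905 CPM in infarct CKD and 1.81 CPM in infarct control libraries. *Has1* overlapped between diets, at 0.886 to 4.39 CPM in infarct CKD and 1.96 to 68.1 CPM in infarct control libraries. None of these lists had a member that passed in remote tissue. The activated fibroblast markers given above moved with these lists and their part was not tested, and no gene of them passed without the infarct libraries of mice 9172 and 9179.

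Between regions these lists were counted beside shares over all genes tested of 24.7% higher and 20.2% lower in CKD mice, and 30.7% higher and 33.2% lower in control mice. Of 21 genes of chondroitin and dermatan sulfate synthesis, 14 rose and 1 fell in CKD mice, and 15 rose and 2 fell in control mice. Of 13 collagens 12 rose in CKD and 13 in control mice. *Dse*, the main dermatan sulfate epimerase, rose by 1.96 in CKD and 2.19 in control mice. Of 7 other small leucine-rich proteoglycans, *Podnl1* (3.14 in CKD, 3.18 in control mice), *Tsku* (1.69 in CKD, 1.997 in control mice) and *Ecm2* (0.78 in both diets), the neighbour of *Aspn*, rose in both, and *Nyx* fell by 0.75 in control mice. *Podnl1* was low, with means of 0.157 CPM in remote CKD, 1.40 in infarct CKD, 0.294 in remote control and 2.75 in infarct control libraries. *Nyx* was low too, with means of 0.795 CPM in remote control and 0.457 in infarct control libraries. Of 14 hyaluronan genes 6 rose and 1 fell in CKD, and 8 rose and 2 fell in control mice, and the receptor *Cd44* rose by 2.16 in CKD and 2.47 in control mice.

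The genes most like each member were sought by Spearman correlation of log2 CPM over the 13 infarct and the 14 remote libraries, ranked by the smaller of both values among 13258 genes. These values describe libraries that share region makeup and depth. *Bgn* was most like *Mxra7* (0.95 in infarct, 0.98 in remote tissue), *Adcy7* and *P3h3*, a collagen prolyl hydroxylase, and *Lum* like *Matn2* (0.97 and 0.94), a matrix protein. *Fmod* was most like *Pdgfrb* (0.93 and 0.93), the PDGF receptor of mesenchymal cells. *Aspn* was most like *Col8a1* (0.90 and 0.92) and *Postn* (0.88 and 0.89), matrix genes of activated fibroblasts. *Vcan* was most like *Dctd* (0.91 and 0.89), *Prelp* like *Slc37a3* (0.91 and 0.86) and *Ogn* like *Rnf138* (0.84 and 0.84). *Dcn*, with *Clmp* (0.80 and 0.77), and *Podn*, with *Smtnl2* (0.67 and 0.71), had weaker closest matches, and *Omd* was the one whose closest match was another of the 10, *Ogn* (0.76 and 0.84).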

How the data were processed

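The authors deposited whole-number read counts per gene, a unit taken from the values. The submitters' processing notes name kallisto 0.48.0 and the build GRCm39, and the labels' protocols name total RNA, the Qiagen RNeasy Micro kit and NEBNext Ultra II RNA libraries. How transcript estimates became gene counts, the annotation and any filter are not given in the sources used here. The 27 libraries came from 14 mice and each mouse is 1 replicate per region. Counts ranged from 14255456 to 42566498 per library, which sets the counting precision.

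Gene symbols that had turned into dates (27) were renamed by Ensembl ID. After filterByExpr and TMM scaling (factors of 0.790 to 1.376), genes were tested with edgeR 4.0.16 (R 4.3.3, quasi-likelihood F test, Benjamini-Hochberg adjustment over all genes tested, threshold 0.05). Diets were compared within each region, and regions and the difference of CKD effects came from 1 fit of all 27 libraries with 4 group means. CPM are TMM-scaled, and the SE of a log2 fold change is its size divided by the square root of F. Scores are means of log2(CPM + 1). Ratios of genes were tested by exact permutation. DESeq2 1.42.0, limma-voom (limma 3.58.1), other scalings and filters, a cardiomyocyte covariate, mouse as a block and leaving out libraries were the alternatives.

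The 2 regions of a mouse come from 1 animal and so form pairs. Within the 13 pairs, deviations from the group means correlated with a median of 0.24 (-0.14 to 0.47), and between mice with a median of -0.02. The block was not in the tests of the report and changed 1 call, that of *Omd* between regions in CKD mice. No pair of libraries in a group was a duplicate (lowest chi-square per degree of freedom 9.03 over 79 pairs).

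Transcript lengths came from GENCODE M21 and start regions from RefSeq GRCm38.p6, another build than that of the counts. The coordinates printed with the start regions are those of GRCm38.p6. All 177 listed genes were found, 1 under an older symbol. The genes and lists, and the named libraries left out, were chosen with earlier results of these data known. All 10 genes are named in each comparison, with up to 3 called genes of a list per direction or, where none was called, those with the smallest p. Per gene, the 3 most similar by the smaller of the rank correlations in infarct and remote libraries were taken, from genes whose mean reached 1 CPM.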

Additional observations from a re-analysis of the deposited data

Results flagged for a closer look

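Among 40 sets of values, 10 genes in 4 groups, 4 held 1 library far from the rest by Dixon's criterion, where chance flags about 1 set in 20, or 2 here. The remote library of control mouse 9180 was far above the other remote control libraries for *Bgn* (1647 CPM, next 674), *Fmod* (105.9 CPM, next 25.3) and *Aspn* (95.6 CPM, next 25.97). The infarct library of control mouse 9184 was far above the other infarct control libraries for *Vcan* (118 CPM, next 59.0). In the same infarct library *Bgn* and *Fmod* were the lowest of their group, at 1692 and 19.1 CPM, and so were *Aspn*, *Ogn*, *Omd* and *Podn*.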

How the results depend on the processing

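Direction and side of the threshold held for most results. The number of the 10 genes called between diets in the infarct was 1 in the report's fit, 3 with DESeq2, 2 in the fit of all 27 libraries, and 0 with limma-voom, with the cardiomyocyte covariate or when the infarcts of mice 9172 and 9179 were left out. In remote tissue it was 0, and 1 with DESeq2. Leaving out 1 library at a time gave 0 to 2 genes between diets in the infarct, 0 to 0 in remote tissue, 6 to 8 between regions in CKD, 8 to 8 in control mice and 0 to 0 for the difference of CKD effects. The cause of these changes was not tested. With mouse as a replicate block, 8 of the 10 genes passed between regions in CKD mice and 8 in control mice, and 0 for the difference of effects. The shares of all genes called in that fit were 48.7% in CKD mice, 66.1% in control mice and 0% for the difference. With limma-voom 9 passed between regions in CKD mice and 8 in control mice, where 60.2% of all genes passed in CKD and 72% in control mice. Over all genes, the infarct count was 2908 in the report's fit, 0 without both libraries or with the covariate, 1926 without a filter, 4557 with DESeq2, 5067 in the fit of all 27 libraries and 0 to 4651 when 1 library was left out. The remote count was 3, and 0 to 97 under the alternatives.

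Signs changed for some estimates, none of them called in any of the fits concerned. Most of these estimates were near 0 or had wide errors. Those of *Bgn* (-0.89 ± 0.40) and *Aspn* (-1.45 ± 0.55) between diets in remote tissue lay further from 0. Their unadjusted p in edgeR was 0.0417 for *Bgn* and 0.0182 for *Aspn*. Between diets in the infarct, *Omd* was -0.028 with upper-quartile factors, -0.0047 without a filter, -0.11 with the covariate and -0.0087 without mice 9172 and 9179. In remote tissue limma-voom gave *Bgn* 0.050 and *Vcan* 0.037, and the covariate gave *Bgn* 0.15, *Aspn* 0.18, *Omd* 0.15 and *Vcan* 0.19. Between regions in CKD mice, *Podn* was 0.0037 with upper-quartile factors, 0.030 with limma-voom, 0.039 without mice 9172 and 9179 and 0.014 with CKD libraries alone, and in control mice -0.016 with limma-voom and -0.042 without the remote library of mouse 9180. For the difference of effects, limma-voom gave *Dcn* 0.062, *Fmod* -0.13, *Aspn* -0.49 and *Podn* 0.046, the replicate block gave *Aspn* -0.25, leaving out the remote library of 9180 gave *Aspn* -0.59 and *Podn* 0.013, and leaving out 9172 and 9179 gave *Dcn* 0.094, *Lum* 0.088, *Bgn* 0.29 and *Vcan* 0.0043. Leaving out 1 library at a time gave ranges across 0 for *Omd* (-0.12 to 0.17) and *Podn* (-0.059 to 0.13) between diets in the infarct, for *Podn* between regions (-0.13 to 0.068 in CKD, -0.043 to 0.13 in control mice), for the difference of effects of *Dcn* (-0.14 to 0.050), *Bgn* (-0.65 to 0.13), *Ogn* (-0.29 to 0.064), *Aspn* (-0.59 to 0.72) and *Podn* (-0.18 to 0.023), and for the *Vcan* to *Dcn* ratio between diets in remote tissue (-0.35 to 0.033). Depth limits *Omd* most, with as few as 4 counts in a library. Batch was not tested, since the labels used here name none.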
